A study of Bos taurus with 129 samples.

Results

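The comparison is COMBO against INR on day 0 in crossbred beef steers labelled as having had bovine respiratory disease (BRD). Its members are the day 0 libraries of BRD cattle in these treatments, 3 COMBO and 7 INR, which is 10 of the 70 whole blood RNA libraries of BRD cattle, beside 59 libraries of healthy cattle. INR steers were assigned to feed with copper, cobalt, manganese and zinc as sulfates. COMBO steers were assigned to feed with these elements complexed with amino acids and to an oral drench of trace minerals and vitamin E. The drench was given before shipment, at enrolment on day 0 and with any treatment for sickness. Other BRD steers were assigned to the complexed feed without the drench (AAC) and are not part of the comparison. Their libraries are among the 70, which were fitted together to estimate the spread, and their day 0 values are given for some genes. All 10 steers shared the long transport to the site and the respiratory virus vaccines and doramectin of enrolment. The sources used here do not say whether the day 0 blood was drawn before or after the day 0 drench and vaccines, nor on which date each steer was found sick. Day 0 was the day of enrolment in the pens, and the authors do not take gene expression on that day as an effect of the supplements, so the comparison is between steers by their assignment. The 3 COMBO steers, animals 16, 18 and 54, were all in pen 6. The INR steers were animals 17, 27, 29 and 39 in pen 7, animals 23 and 43 in pen 3, and animal 40 in pen 4. Treatment and pen therefore cannot be told apart, and each animal gave 1 library on day 0.

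Blood RNA on arrival reports on the white cells in circulation. In viral infection, or after exposure to viral products, cells release interferons, which bind receptors on neighbouring cells and switch on a shared programme of interferon-stimulated genes such as MX1, ISG15 and IRF7. CXCL10 belongs to the part of that programme that draws activated T cells towards the source. Copper, cobalt, manganese and zinc act mostly as cofactors of enzymes, among them the superoxide dismutases, and cells sense zinc and copper partly through metallothioneins. Bulk blood cannot separate a change in the share of a cell type from a change in RNA within its cells.

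Total counts lay between 38235387 and 46966252 in the 10 libraries, and the 3 COMBO libraries lay inside the INR range. The samples had the markers of whole blood in every library: CD3E of T cells lay between 294 and 465 CPM, the counts of a gene scaled to a common library size, CD79A of B cells between 440 and 969 CPM, LYZ of myeloid cells between 637 and 3629 CPM, and PF4 of platelets between 74.9 and 665 CPM. COMBO animals 18 and 54 stood apart from the other 8 libraries. On the first principal component of the 10 libraries, with 23.4% of the variance, they scored 122.2 and 106.1, against -40.1 for COMBO animal 16 and -77.8 to 4.6 for the 7 INR animals. The main results are therefore given with and without these animals. Without both, COMBO is animal 16 alone and the spread comes from the other groups, so such values describe that animal against INR and are given without a test.

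Of 18477 genes tested, 170 (0.920%) passed a false discovery rate (FDR) under 0.10, of which 46 were lower in COMBO (0.249% of all genes) and the others higher (0.671%). The median log2 fold change, positive where COMBO was higher, was 0.67 over the higher genes and -1.19 over the lower genes, and 48 of the higher and 30 of the lower genes changed by at least 2-fold. Among the higher genes the highest COMBO value was in animal 18 for 83, in animal 54 for 37 and in animal 16 for 4. Animal 16 lay inside the INR range for 88 of the higher genes and for 18 of the 46 lower genes. The share over all genes was not taken for this position. Animal 16 also lay inside the INR range for most members of each gene list examined below, except plasma cell genes (6 of 13). The COMBO and INR values did not overlap for 28 of the higher and 26 of the lower genes. Over all genes tested, COMBO lay wholly above INR for 1.63% and wholly below for 1.46%.

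The size of this list rested on single animals. Leaving out COMBO animal 16 raised the counts to 988 higher and 544 lower, leaving out animal 18 left 9 and 5, and leaving out animal 54 left 14 and 2. Leaving out INR animal 39 left 21 and 11, leaving out animal 27 left 57 and 26, leaving out animal 29 left 67 and 31, and leaving out animal 43 gave 274 and 88. With the spread estimated from the 10 libraries alone, 1 gene was higher and none was lower (1815 genes at an unadjusted p under 0.05). With COMBO compared only with the INR animals of pen 7 the counts were 54 and 15, and only with those of pens 3 and 4 they were 5 and 18. Of the 30 genes of smallest p, 15 in each direction, 30 passed without animal 16, 7 without animal 18 and 8 without animal 54. STS, CXCL10 and LOC112444339 were the 3 genes that passed with each of the 10 animals left out in turn. None of these 3 passed when the spread came from the 10 libraries alone (adjusted p = 0.326 for each).

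**Figure D1:**
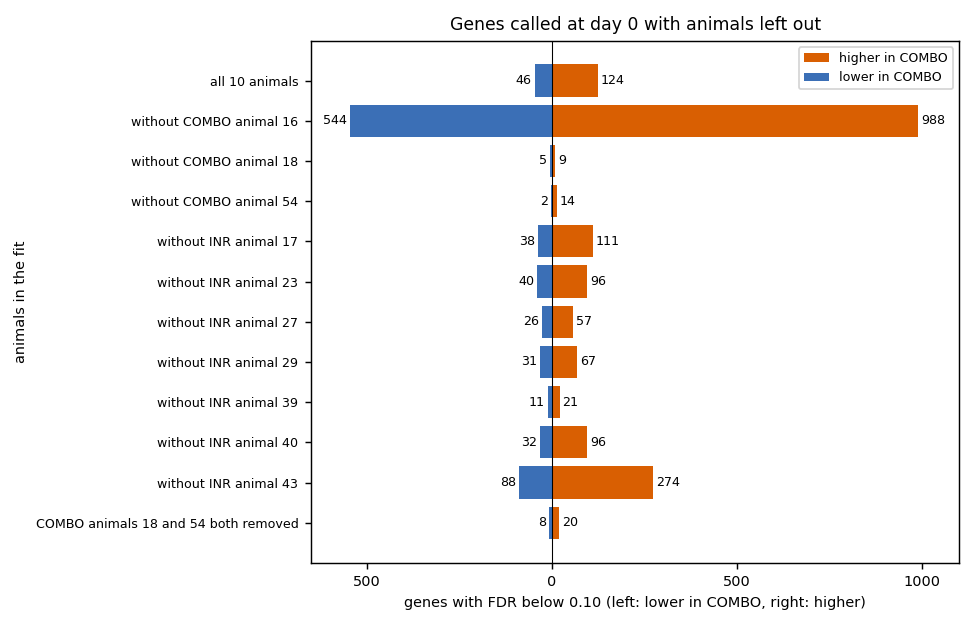
Number of genes with an FDR under 0.10 between COMBO and INR BRD cattle on day 0, with all 10 animals and with animals left out of the fit. Bars to the right count genes higher in COMBO and bars to the left genes lower in COMBO, from 988 and 544 without animal 16 to 9 and 5 without animal 18.

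CXCL10 was higher in COMBO, with the largest difference of the interferon genes. It read 5.33 CPM in animal 16, 186 CPM in animal 18 and 142 CPM in animal 54, and 4.97, 10.20 and 18.6 CPM as the lowest, median and highest of the 7 INR animals. The groups overlapped through animal 16, while animals 18 and 54 stood far above every INR steer. The log2 fold change was 3.43 ± 0.64 (SE, adjusted p = 0.00335), between 2.84 and 3.99 with each animal left out, and -0.95 with animals 18 and 54 both removed.

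The wider set of type I interferon-stimulated genes had the highest median of the 26 gene lists, although none of its 36 tested members passed the threshold. Its median log2 fold change was 0.90, against -0.0125 over all genes tested, and 34 of 36 members had a positive value. An unadjusted p under 0.05 with a higher value in COMBO was reached by 16 of 36, against 7.45% of all genes. IFIT2 read 11.1, 49.1 and 490 CPM in animals 16, 18 and 54, against an INR range of 5.46 to 85.1 CPM with a median of 18.8 CPM. Its log2 fold change was 2.73 ± 0.88 (adjusted p = 0.149), and 0.11 without animal 54. IRF7, the transcription factor that amplifies the interferon response, read 62.5, 749 and 533 CPM, against 68.1 to 339 CPM with a median of 128.6 CPM (1.46 ± 0.52, adjusted p = 0.197). Both COMBO animals 18 and 54 exceeded all 7 INR animals for 24 of the 36 genes, against 11.8% of all genes, whereas animal 16 was under the INR median for 35 of the 36. No share over all genes was taken for that last position. Animal 16 was under the INR median for 17 of 21 platelet genes and 3 of 32 cell cycle genes.

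Summed over the 36 genes, animal 18 read 40814 CPM and animal 54 read 33498 CPM. Animal 16 read 4762 CPM and the INR animals 3404 to 25348 CPM, the highest in animals 43 and 23. MX1, an antiviral GTPase, followed the same order, with 579, 5392 and 3221 CPM in animals 16, 18 and 54 and 319 to 2101 CPM in INR. LY6E, an interferon-inducible surface protein named after its values were seen, passed the threshold (log2 fold change 1.45 ± 0.36, adjusted p = 0.0479). With animals 18 and 54 removed, the median of the 36 genes turned to -1.32, beside -0.0126 over all genes.

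**Figure D2:**
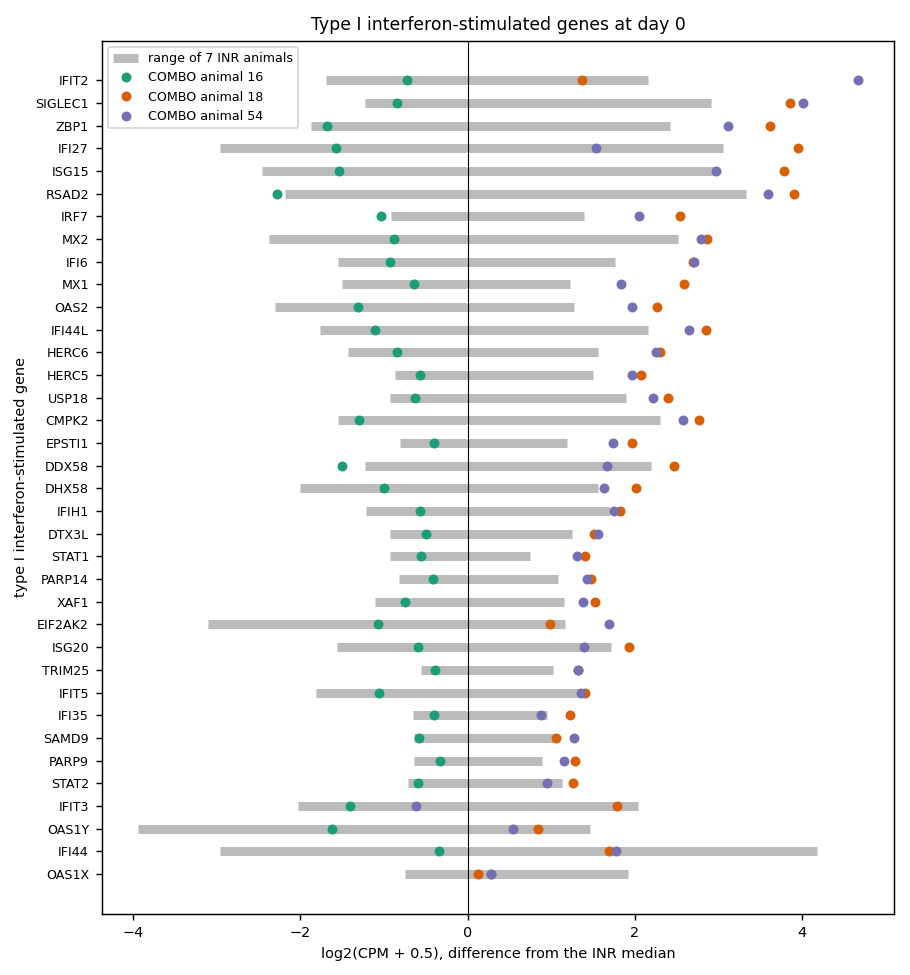
Expression of the 36 tested type I interferon-stimulated genes in each COMBO animal relative to the INR median, as a difference in log2(CPM + 0.5). Grey bars span the 7 INR animals. Animals 18 and 54 both lie beyond the INR range for 24 genes and animal 16 lies under the INR median for 35.

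Of the 15 tested interferon-gamma response genes, CXCL10 passed the threshold. An unadjusted p under 0.05 with a higher value in COMBO was found for 6 of the 15, against 7.45% of all genes. The median was 0.47, and -0.18 with animals 18 and 54 removed. GBP5, a guanylate-binding protein, read 10.3, 184 and 89.5 CPM in animals 16, 18 and 54 against 8.89 to 80.55 CPM in INR (adjusted p = 0.222). Among the 14 MHC class II genes none passed (BOLA-DRB3, log2 fold change 0.56 ± 0.20, adjusted p = 0.211). At an unadjusted p under 0.05, 2 were higher and 1 lower, where 7.45% and 4.87% of all genes were. The median was 0.44, and -0.11 with animals 18 and 54 removed. BOLA-DYA was at 0 in all 3 COMBO libraries and at 0.40 CPM or less in INR (adjusted p = 0.272). The class II genes are polymorphic and alike, so reads may be split among them.

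Histone genes were among the strongest differences. HIST1H1D, a linker histone, read 12.2, 113.9 and 43.6 CPM in COMBO animals 16, 18 and 54, against an INR lowest of 7.89, median of 10.01 and highest of 21.2 CPM. HIST1H2BD, a core H2B histone, read 13.8, 76.6 and 46.1 CPM, against 7.80, 8.33 and 25.6 CPM. H4, the core histone at the centre of the nucleosome, read 2.96, 15.2 and 7.21 CPM, against 1.25, 1.86 and 2.32 CPM. In all 3 genes animal 18 was highest and animal 54 second, and only for H4 did animal 16 also exceed every INR animal.

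The log2 fold changes were 2.25 ± 0.37 for HIST1H1D (adjusted p = 0.0011), 1.83 ± 0.33 for HIST1H2BD and 2.24 ± 0.41 for H4 (adjusted p = 0.00256 for both). Without animal 18 none of the 3 passed (adjusted p = 0.460, 0.220 and 0.460 in the same order). With animals 18 and 54 both removed the values were 0.05, 0.12 and 0.73. Of the 24 tested genes whose symbols begin with HIST or are H2B or H4, a group chosen after its values were seen, these 3 passed and 11 were higher at an unadjusted p under 0.05, where 0.671% and 7.45% of all genes did so. The median of the 24 was 0.66. Most replicating-cell histone messages lack the tail that mRNA kits capture, and histone copies are near-identical, so the count of a single copy is uncertain. Of 32 cell cycle genes none passed, the median was -0.07, and PLK1, a mitotic kinase, read 75.53, 55.72 and 55.73 CPM in COMBO against 68.9 to 89.7 CPM in INR (adjusted p = 0.269). CDC6, a replication licensing factor, read 0.34 CPM or less in COMBO and up to 1.13 CPM in INR (adjusted p = 0.672).

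STS had the smallest p of all genes. It codes for steroid sulfatase, which frees steroids from their sulfate form. It read 3.13, 4.35 and 6.54 CPM in COMBO animals 16, 18 and 54, and 0.62, 1.24 and 2.43 CPM as the lowest, median and highest of INR. All 3 COMBO animals were above all 7 INR animals. The log2 fold change was 1.86 ± 0.28 (adjusted p = 0.000213), and the adjusted p was at most 0.00931 with any 1 animal left out. With animals 18 and 54 both removed the value was 1.29. The 4 BRD steers fed the complexed minerals without the drench (AAC) read 0.95 to 1.63 CPM.

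**Figure D3:**
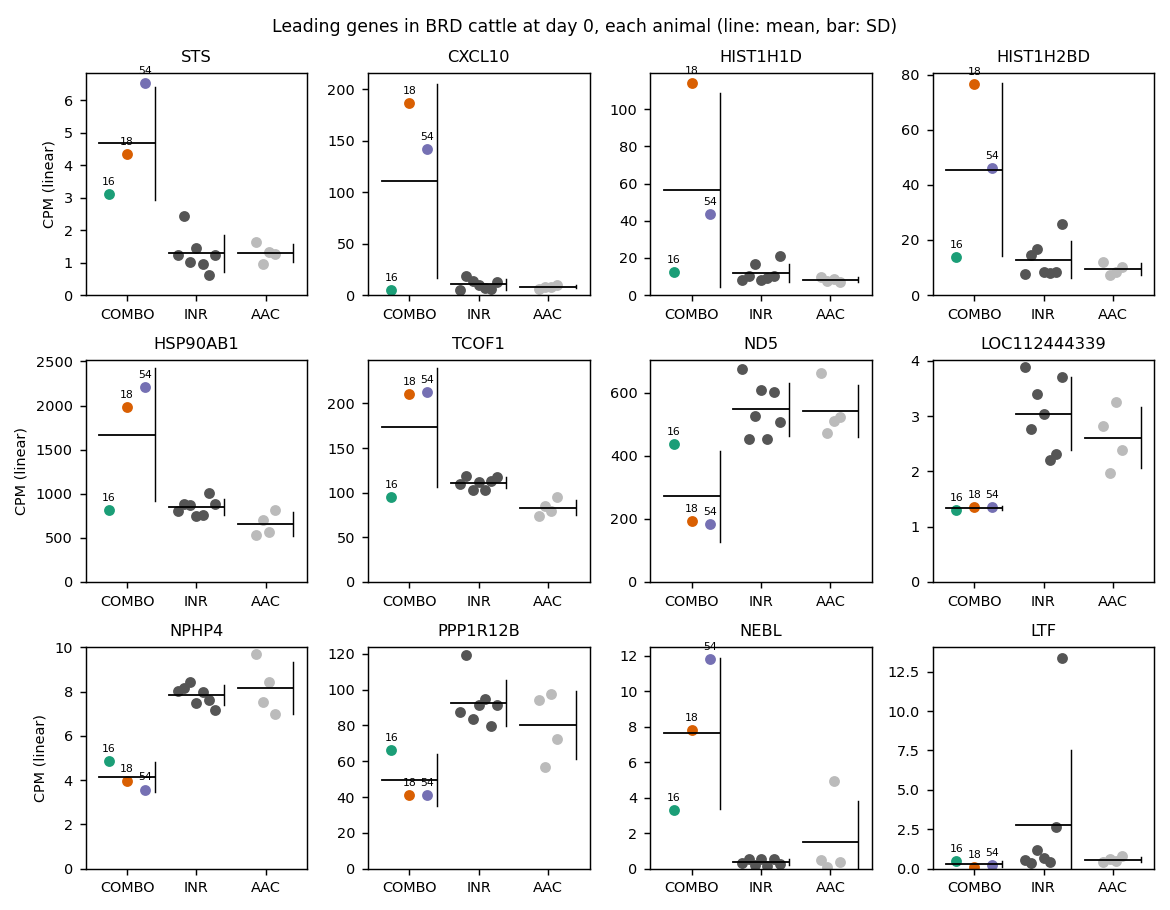
CPM on a linear axis of 12 genes in BRD cattle on day 0, with 1 point per animal, the mean as a line and the SD as a bar, for 3 COMBO (numbered), 7 INR and 4 AAC animals. COMBO animal 16 lies apart from animals 18 and 54 for CXCL10, HIST1H1D, HSP90AB1 and TCOF1, and close to them for LOC112444339 and NPHP4.

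The other genes among the 15 of smallest p that were higher in COMBO split by whether animal 16 took part. LOC100298064, a protein-coding locus, read 0.97, 6.43 and 2.81 CPM in animals 16, 18 and 54 against 0.24 to 0.96 CPM in INR, and SMAGP, a small membrane adhesion glycoprotein, read 28.0, 50.2 and 42.2 CPM against 15.9 to 23.8 CPM. Neither overlapped with INR. TBCE, a tubulin folding cofactor, read 30.3, 50.2 and 25.03 CPM against 14.8 to 25.4 CPM, with animal 54 inside the INR range. For the rest animal 16 lay inside the INR range or below it.

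LOC100847695, a long noncoding RNA, read 2.98, 19.2 and 27.1 CPM in animals 16, 18 and 54 against 2.35 to 5.18 CPM in INR (log2 fold change 1.99 ± 0.36, adjusted p = 0.00256). LEKR1 read 2.80, 13.6 and 16.1 CPM against 1.23 to 3.91 CPM (2.21 ± 0.45, adjusted p = 0.012). EVA1A, a regulator of autophagy and cell death, read 5.16, 10.9 and 19.7 CPM against 3.36 to 8.182 CPM (1.14 ± 0.21, adjusted p = 0.00335). In all 3 genes animal 54 was highest. The survival kinase PIM3 (0.77 ± 0.16), the CREB coactivator CRTC1 (0.58 ± 0.12) and LRCH1 (0.45 ± 0.09) were raised by less, with animal 18 highest in each.

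TCOF1, whose product treacle drives ribosomal RNA synthesis in the nucleolus, read 95.6, 211 and 213 CPM in animals 16, 18 and 54. The 7 INR animals had a lowest value of 102.9 and a median of 112.5 CPM, and animal 16 fell under all of them while the other COMBO animals exceeded all of them (log2 fold change 0.64 ± 0.13, adjusted p = 0.0131). Further genes of ribosome assembly, named after their values were seen, passed with smaller differences: NOL6 (0.66 ± 0.17), DDX52 (0.69 ± 0.19), RPF2 (0.58 ± 0.14), DDX10 (0.49 ± 0.14), NVL (0.40 ± 0.11), RBM28 (0.39 ± 0.11) and ABT1 (0.33 ± 0.08). No list of such genes was tested. With animals 18 and 54 removed, TCOF1 stood at -0.21.

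HSP90AB1, an abundant chaperone, was the 1 member of 34 heat shock and endoplasmic reticulum chaperones that passed. It read 814, 1984 and 2212 CPM in COMBO animals 16, 18 and 54 and 742, 875 and 1003 CPM as the lowest, median and highest of INR (log2 fold change 0.98 ± 0.23, adjusted p = 0.0366). Animal 16 was inside the INR range, and the value without animals 18 and 54 was -0.05. At an unadjusted p under 0.05, 8 of the 34 were higher, against 7.45% of all genes, and none was lower. The median of the list was 0.15. Outside the list, the chaperonin subunits CCT8 (0.44 ± 0.11) and CCT4 (0.51 ± 0.14) and the HSP90 partner PTGES3 (0.46 ± 0.13), named after their values were seen, also passed. IL7, a cytokine that keeps T cells alive, was higher as well, at 6.40, 16.3 and 14.26 CPM against 3.01 to 6.81 CPM (adjusted p = 0.0341).

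ND5 was the gene of smallest p among those lower in COMBO. It is a mitochondrially encoded subunit of respiratory complex I. It read 437, 194 and 184 CPM in animals 16, 18 and 54, and 452, 527 and 677 CPM as the lowest, median and highest of INR. No COMBO animal reached the INR range, though animal 16 was close to it. The log2 fold change was -1.01 ± 0.17 (adjusted p = 0.00151), and -0.32 without animals 18 and 54. ND2, a further complex I subunit, also passed, at 1045, 487 and 514 CPM against 854 to 1244 CPM (-0.60 ± 0.16, adjusted p = 0.0866).

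Of the 12 mitochondrially encoded protein genes that were tested, a group looked at after its values were seen, 8 were lower at an unadjusted p under 0.05. Over all genes, 4.87% were so. None of the 12 was higher at that p, though ATP6 had a positive value (0.31), and the median of the 12 was -0.60. The share of these genes in all counts was 1.16% in animal 16, 0.649% in animal 18 and 0.652% in animal 54, and 0.9997% to 1.41% in INR. The mitochondrial share thus moved with the same animals as the interferon and histone genes, and its part in those differences was not tested.

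LOC112444339, a long noncoding RNA, was the lower gene least dependent on single animals. It read 1.303, 1.354 and 1.357 CPM in animals 16, 18 and 54 and 2.21, 3.04 and 3.89 CPM as the lowest, median and highest of INR. The 3 COMBO animals were nearly equal and below all INR animals, with a log2 fold change of -1.19 ± 0.21 (adjusted p = 0.00243) and an adjusted p of at most 0.0634 with any 1 animal left out. NPHP4, a ciliary scaffold protein, read 4.88, 3.96 and 3.58 CPM against 7.15 to 8.43 CPM (-0.92 ± 0.18, adjusted p = 0.00641), again without overlap, but it did not pass without animal 54 (adjusted p = 0.164). LOC101905845, a long noncoding RNA of low level, read 0.12 to 0.23 CPM in COMBO and 0.38 to 0.90 CPM in INR (-1.83 ± 0.39, adjusted p = 0.0165).

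The other lower genes of smallest p were of mixed function. PPP1R12B, a regulatory subunit of myosin phosphatase, read 66.27, 40.91 and 41.22 CPM against 79.8 to 119.6 CPM, and COL7A1, the anchoring fibril collagen, read 2.16, 0.65 and 1.19 CPM against 2.45 to 4.898 CPM. GALC, a lysosomal galactosidase, read 9.81, 6.43 and 5.41 CPM against 10.1 to 18.8 CPM, and BRF1, a subunit of the RNA polymerase III initiation factor, read 52.63, 41.17 and 44.69 CPM against 58.5 to 63.32 CPM. These groups did not overlap. Nor did those of the centrosomal gene CEP131 (-0.54 ± 0.12), LOC101907697 (-0.74 ± 0.18) or the ciliary gene SPEF1 (-2.21 ± 0.56), the last at under 0.10 CPM in COMBO.

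Groups overlapped for the mitochondrial dicarboxylate carrier SLC25A10 (-0.99 ± 0.22), the mitochondrial protein RTN4IP1 (-0.59 ± 0.15), TSTD3 (-0.58 ± 0.15) and TIRAP. TIRAP, the adaptor that couples TLR2 and TLR4 to MYD88, read 87.8, 93.2 and 106.2 CPM in animals 16, 18 and 54 and 103.7 to 178 CPM in INR (-0.57 ± 0.14, adjusted p = 0.0498). Here animal 16 was the lowest, and the value without animals 18 and 54 was -0.69. HTT, named after its values were seen, read 39.5, 51.6 and 60.4 CPM against a lowest of 81.2 and a median of 103.3 CPM in INR (-1.03 ± 0.26, adjusted p = 0.0605).

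Neutrophil granule and alarmin genes had the lowest median of the 26 lists, -0.70, with 1 of 25 members lower at the threshold. That member, LTF, the iron-binding granule protein lactoferrin, read 0.52, 0.13 and 0.22 CPM in animals 16, 18 and 54 and 0.36, 0.68 and 13.4 CPM as the lowest, median and highest of INR. The highest value was that of INR animal 43, and the groups overlapped (log2 fold change -3.22 ± 0.89, adjusted p = 0.0904). Without animal 43 the value was -1.74 and did not pass (adjusted p = 0.256). At an unadjusted p under 0.05, 7 of 25 were lower, against 4.87% of all genes, and 2 were higher. Summed over the list, animal 43 read 10610 CPM, while the COMBO animals read 2857 to 3723 CPM and the lowest INR animal 1887 CPM. DMBT1, a scavenger protein named after its values were seen, read 5.104 to 6.29 CPM in COMBO and 9.11 to 215 CPM in INR, again highest in animal 43.

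Among 34 inflammatory cytokine and NF-kB feedback genes 1 was higher and none lower, with a median of -0.005. NFKB2, which codes for the p100 precursor of the noncanonical pathway, read 129.4, 164 and 158 CPM in COMBO and 72.6, 94.8 and 118.2 CPM as the lowest, median and highest of INR, without overlap (0.64 ± 0.17, adjusted p = 0.0866). None of 25 glucocorticoid-induced genes passed, and their median was -0.48. At an unadjusted p under 0.05, 4 of the 25 were lower, against 4.87% of all genes, and none was higher. IL1R2, the decoy receptor for interleukin 1, read 5.52, 3.13 and 3.09 CPM against 4.53 to 102.6 CPM (adjusted p = 0.125), and MAP3K6 read 6.77, 2.86 and 3.702 CPM against 4.75 to 11.7 CPM (adjusted p = 0.138).

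Markers of other blood cells gave no gene past the threshold. B cell markers had the second highest median, 0.57 over 17 genes, and 0.075 with animals 18 and 54 removed. At an unadjusted p under 0.05, 10 of the 17 were higher, against 7.45% of all genes, and none was lower. SPIB, a B cell transcription factor, read 309, 862 and 587 CPM in animals 16, 18 and 54 against 169 to 313 CPM in INR (adjusted p = 0.145). CD22, an inhibitory receptor of B cells, read 76.2, 76.3 and 73.4 CPM against 21.45 to 66.9 CPM (adjusted p = 0.202), without overlap. Summed over the list, the COMBO animals read 3189, 5472 and 4352 CPM and INR 1961 to 3366 CPM, so the B cell sum was highest in animals 18 and 54, those with the highest interferon sums. The part of B cell share in the histone and interferon differences was not tested.

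The remaining cell lists lay nearer to the background. Medians were 0.22 for 13 plasma cell genes (POU2AF1, adjusted p = 0.223, and JCHAIN, 0.557), -0.10 for 24 alpha-beta T cell genes (CD8A, 0.398, and CCR7, 0.535) and -0.17 for 19 NK and cytotoxic genes (KLRB1, 0.528, and CCL5, 0.594). They were -0.007 for 10 WC1 gamma-delta T cell genes (WC1-12, 0.490), -0.32 for 19 monocyte genes (CD163, 0.193, and LYZ, 0.311) and 0.15 for 13 eosinophil and basophil genes (HDC, 0.271, and ALOX15, 0.640). They were -0.37 for 21 platelet genes (F13A1, 0.383, and GP5, 0.448), -0.26 for 28 erythroid genes (SLC25A38, 0.149, and FECH, 0.422) and -0.26 for 18 connective tissue genes (COL6A3, 0.555, and VIM, 0.635). Monocyte markers summed to 4252, 2184 and 2614 CPM in animals 16, 18 and 54 and to 2831 to 8140 CPM in INR. In animals 18 and 54 the monocyte sum was thus below that of every INR animal, and the B cell sum was above. This did not hold gene by gene, as CD163 of animal 54 lay inside the INR range. Animals 18 and 54 both exceeded every INR animal for 13 of the 17 B cell genes, against 11.8% of all genes.

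**Figure D4:**
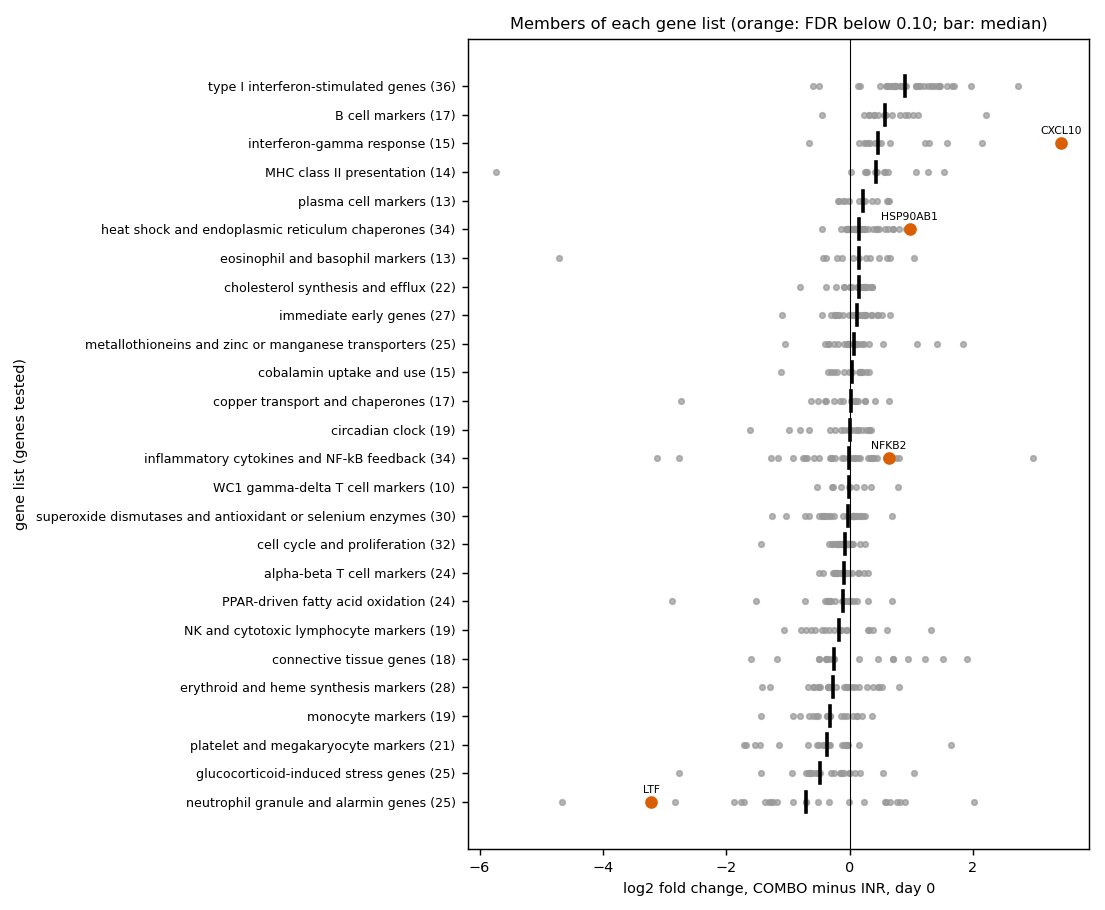
Log2 fold change, COMBO minus INR, of the tested members of 26 gene lists in BRD cattle on day 0, sorted by list median (black bar), with the number tested in parentheses. Orange points are the 4 list members with an FDR under 0.10: CXCL10, HSP90AB1, NFKB2 and LTF. Medians run from -0.70 to 0.90.

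Genes that handle the supplemented minerals gave no call between the groups on day 0. No member passed in any of the 4 lists, and their medians were 0.06 over 25 metallothioneins and zinc or manganese transporters, 0.02 over 17 copper genes, 0.04 over 15 cobalamin genes and -0.02 over 30 antioxidant and selenium enzymes. At an unadjusted p under 0.05 they held 1, 1, 2 and 1 higher genes and 2, 1, 2 and 2 lower genes in the same order. Over all genes, 7.45% were higher and 4.87% lower at that p.

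The zinc exporter SLC30A1, which cells switch on when zinc rises, read 109.4, 114.7 and 119.1 CPM in animals 16, 18 and 54 against 85.22 to 144 CPM in INR (log2 fold change 0.11 ± 0.18, adjusted p = 0.853). SLC11A2, a divalent metal importer, read 31.5, 20.3 and 24.9 CPM against 27.2 to 39.5 CPM (-0.33 ± 0.13, adjusted p = 0.249), and its phagosomal relative SLC11A1 read 28.4 to 51.3 CPM in COMBO against a lowest of 30.6 and a median of 85.3 CPM in INR (-1.05 ± 0.45, adjusted p = 0.299). SLC39A9 stood at 0.16 ± 0.10 and SLC30A7 at -0.04 ± 0.11, both named for their mean level.

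For copper, SCO1, which loads cytochrome oxidase, had a value of 0.26 ± 0.09 (adjusted p = 0.197), the importer SLC31A1 -0.40 ± 0.19 (adjusted p = 0.358), the reductase STEAP4 0.42 ± 0.51, the exporter ATP7A -0.15 ± 0.28 and the superoxide dismutase chaperone CCS -0.11 ± 0.13. Among cobalamin genes the reductase MTRR stood at 0.26 ± 0.11 (adjusted p = 0.299), the exporter ABCC1 at -0.01 ± 0.14, the binder TCN1 at -1.12 ± 0.56 and MMADHC at 0.20 ± 0.09. Among antioxidant genes GPX7 stood at 0.68 ± 0.29 (adjusted p = 0.296), the selenoprotein MSRB1 at -0.50 ± 0.22 (adjusted p = 0.308), the manganese enzyme SOD2 at -0.33 ± 0.38, TXNRD1 at 0.05 ± 0.12 and PRDX1 at 0.26 ± 0.16. A value that did not pass does not show that the treatments were equal.

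The metabolic and timing lists held no gene past the threshold either. Medians were -0.11 for 24 fatty acid oxidation genes (ACSL1, adjusted p = 0.173, and ACADM, 0.207), 0.15 for 22 cholesterol genes (SREBF2, 0.250, and NSDHL, 0.326), 0.12 for 27 immediate early genes (IER2, 0.151, and IER5, 0.212) and -0.001 for 19 clock genes (NFIL3, 0.189, and TEF, 0.275).

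On later days few genes passed the threshold in the same animals. The number of genes that passed between COMBO and INR was 0 on day 13, 1 on day 28 (0.00541%), 0 on day 45 and 2 on day 60 (0.0108%) by edgeR, at 1437, 529, 577 and 754 genes with an unadjusted p under 0.05. None of the 170 day 0 genes passed on a later day. Of these genes 134 kept their sign on day 13, 155 on day 28, 136 on day 45 and 81 on day 60. The median log2 fold change of the higher genes was 0.14 on day 13, 0.17 on day 28, 0.08 on day 45 and -0.06 on day 60, and that of the lower genes was -0.21, -0.44, -0.40 and -0.25. No change between days was tested.

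The day on which the interferon genes were high differed between the COMBO animals. Summed over the 36 genes, animal 54 went from 33498 CPM on day 0 to 4395 CPM on day 13, and animal 18 from 40814 to 7971 CPM, with 20059 CPM on day 28 and 25134 CPM on day 45. Animal 16 read 4762 CPM on day 0 and 33867 CPM on day 13, when the INR animals read 3241 to 17853 CPM. CXCL10 likewise lay between 7.01 and 116.1 CPM in COMBO on day 13, with a log2 fold change of 1.63 (adjusted p = 0.631). HIST1H1D, which was also high in animal 18 on day 0, was 9.003 to 16.1 CPM in COMBO and 7.84 to 16.5 CPM in INR on day 13.

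NEBL values of COMBO and INR stayed apart at every sampling. The gene codes for nebulette, an actin-binding protein best known from heart muscle, and was named after its values were seen. On day 0 it read 3.29, 7.81 and 11.8 CPM in animals 16, 18 and 54 and 0.16 to 0.56 CPM in INR (log2 fold change 4.30 ± 0.93, adjusted p = 0.0186), and it was the gene called from the 10 libraries alone (adjusted p = 0.0205). The groups did not overlap on day 13, 28, 45 or 60, when the log2 fold change was 4.12, 3.60, 3.58 and 3.34, although the adjusted p was 0.207, 0.489, 0.638 and 0.484. In AAC 1 of 4 animals also read 4.94 CPM while the other 3 read 0.50 CPM or less. Without animal 18 or 54 the day 0 call was lost (adjusted p = 0.129 and 0.249).

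LYPD8, CDH2 and FAT1, named after their values were seen, kept the sign of the log2 fold change on later days, when none passed. LYPD8 read 8.86 CPM in animal 16 on day 0 and 7.88 CPM or more on each later day, while the other COMBO animals read 0.72 to 1.35 CPM over all days. Without animal 16 its log2 fold change fell from 2.64 to 0.58 (adjusted p = 0.461). CDH2, the cell adhesion protein N-cadherin, was 2.59 ± 0.72 on day 0 and 2.64, 2.56, 2.67 and 2.77 on the later days. On day 0 it read 13.36, 4.66 and 1.90 CPM in animals 16, 18 and 54 against 0.36 to 2.09 CPM in INR. The groups thus overlapped through animal 54, and the day 0 call was lost without animal 18 (adjusted p = 0.428). FAT1, an atypical cadherin, was -3.05 ± 0.79 on day 0 and between -2.47 and -1.92 later, with INR animal 23 below all COMBO animals at 0.44 CPM.

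**Figure D5:**
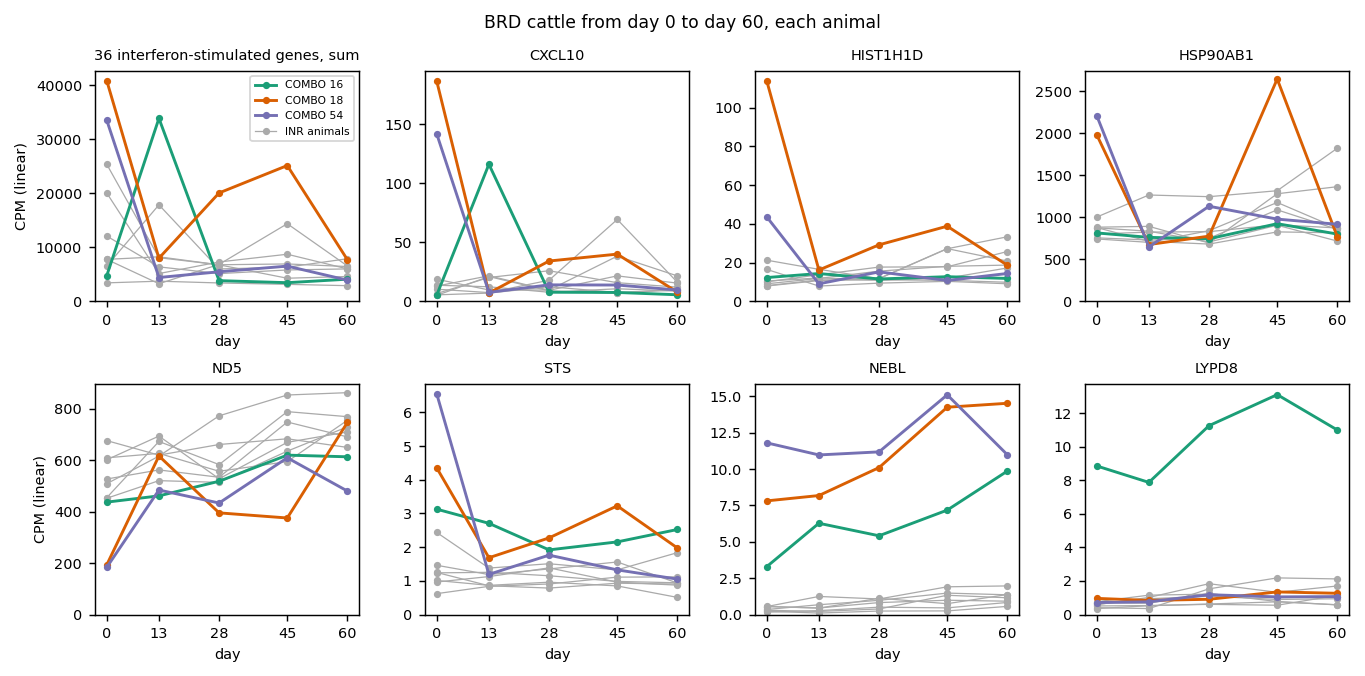
CPM on a linear axis from day 0 to day 60 in each COMBO animal (coloured) and each INR animal (grey) with BRD, for the sum of 36 interferon-stimulated genes and for 7 genes. The interferon sum is highest on day 0 in animals 18 and 54 and on day 13 in animal 16. NEBL is above INR in all 3 COMBO animals on each day. LYPD8 is far above INR in animal 16 on each day, and slightly above INR in animal 18 on day 0.

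Healthy steers on day 0, 4 in COMBO and 4 in INR, provided the most similar comparison. The healthy COMBO steers were all in pen 5, and of the healthy INR steers 3 were in pen 4 and 1 was in pen 3. Of 18269 genes, 5 passed (0.0274%), and none of them passed in the BRD cattle. LOC112442254, RNF144B, an E3 ubiquitin ligase, and the chemokine XCL2 were higher in healthy COMBO (log2 fold changes 2.82, 1.24 and 1.36), and TRIM13 and ZNF311 were lower (-0.94 and -1.37). In BRD cattle these genes stood at -2.53, -0.12, 0.29, 0.14 and 0.34, with adjusted p of 0.249 or more. LOC112442254 read 82.1 CPM in BRD INR animal 17 and at most 4.89 CPM in the other BRD COMBO and INR animals, and in healthy COMBO it read 81.5 CPM in animal 57 and at most 9.56 CPM in the others.

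The difference between the BRD and the healthy contrast was tested directly, and 390 of 18937 genes passed (2.06%), 229 with a higher COMBO minus INR value in BRD cattle (1.21%) and 161 with a lower one (0.850%). These counts share the BRD libraries with the main comparison. Since BRD COMBO steers were all in pen 6 and healthy COMBO steers all in pen 5, disease label and pen cannot be told apart within COMBO. Among the 10 genes of smallest p, HIST1H1D differed by 3.27 ± 0.59 log2 units (adjusted p = 0.00195). Its range in healthy cattle was 6.56 to 12.2 CPM in COMBO and 7.71 to 36.6 CPM in INR, so the healthy value was -1.02. LOC100847695 (2.90 ± 0.51), LOC100298064 (3.94 ± 0.73), EVA1A (1.49 ± 0.29) and PIM3 (1.06 ± 0.22) also had positive BRD values and negative healthy values.

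The same held for NUAK2, an AMPK-related kinase, at 78.02 ± 31.95 CPM in BRD COMBO (SD, n = 3) and 38.9 ± 7.43 CPM in BRD INR (n = 7), with 27.8 ± 2.70 CPM in healthy COMBO and 43.9 ± 10.7 CPM in healthy INR (n = 4 each). Its difference was 1.67 ± 0.31 (adjusted p = 0.00247). It held as well for the actin-associated PPP1R18 (0.61 ± 0.12), the lymphocyte receptor FCRL3 (3.48 ± 0.72) and ZNHIT6 of snoRNP assembly (1.24 ± 0.26), and in the other direction for OTOA (-3.52 ± 0.73), which was at 0 in BRD COMBO animals 18 and 54. Of these 10 genes, PPP1R18 was the exception to a shared pattern in healthy INR, in which animal 10 had the highest value of the 4 steers for the 8 others of positive difference and the lowest for OTOA. It read 36.56 CPM for HIST1H1D, where the other 3 steers read 7.71 to 16.35 CPM, and without it 35 genes passed. STS differed by 1.87 ± 0.41 (adjusted p = 0.02), CXCL10 by 3.98 ± 0.90 (adjusted p = 0.0224) and NEBL by 4.88 ± 1.24 (adjusted p = 0.0361). IRF7 (0.69 ± 0.71, adjusted p = 0.691) did not pass, and the interferon sum in healthy animals reached 16344 CPM in COMBO and 14877 CPM in INR.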

How the data were processed

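Gene counts were deposited by the authors for 129 whole blood libraries, without normalization, as whole-number counts of 32395 genes. Per the labels and the study's methods, the authors trimmed paired reads (Trimmomatic 0.39), aligned them by HISAT2 against the ARS-UCD1.3 assembly, built transcripts in StringTie 2.2.0 and derived the counts with prepDE from coverage and read length (150), so they are not direct tallies of reads. RefSeq names of ARS-UCD2.0 matched 26813 of the 32395 genes by symbol and were used for names only.

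The 70 libraries of BRD cattle were fitted with edgeR 4.0.16 in R 4.3.3: filterByExpr, TMM factors, a common dispersion (coefficient of variation 40.2%), 15 group means and the quasi-likelihood test, and p-values were adjusted after Benjamini and Hochberg over all genes with a threshold of 0.10. Libraries of an animal were treated as independent. SE is that implied by the F statistic. CPM are TMM-scaled. Healthy cattle (59 libraries) and the difference (129 libraries, 30 means) were fitted alike. Total counts were 38235387 to 46966252 in the 10 libraries. No 2 of the 10 libraries agreed within sampling noise.

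Alternatives were DESeq2 1.42.0, limma 3.58.1, other factors, dispersions, filters and samples, and each animal left out on all days. Removing animals 18 and 54 was chosen after seeing the data. Named genes are the 15 of smallest p in each direction, the genes called in healthy cattle, the 10 of smallest p for the difference, and in each list the called members (at most 4) or the 2 of smallest p, with the 3 of highest level in the mineral lists. Some genes that this rule names are not reported here. The members and gene lists were chosen with earlier results of these data known. Serum minerals were not used here.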

Additional observations from a re-analysis of the deposited data

Results flagged for a closer look

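Single animals lay far from the rest of their group for 6 of the 60 groups of 4 or 7 animals examined, where chance flags about 1 in 20 groups of independent normal values. The genes were chosen by values in these libraries, so that rate is only a guide. In INR BRD cattle, PPP1R12B was 120 CPM in animal 23, next to 94.8 CPM, and LOC101907697 was 4.86 CPM in animal 43, next to 3.61 CPM. In healthy COMBO cattle, LOC112442254 was 81.5 CPM in animal 57, next to 9.56 CPM. In healthy INR cattle, XCL2 was 1.15 CPM in animal 50, next to 1.84 CPM, and animal 10 was highest for FCRL3 at 199.8 CPM, next to 37.99 CPM, and for ZNHIT6 at 22.3 CPM, next to 12.4 CPM.

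The COMBO minus INR value differed between BRD and healthy cattle, by a test of the difference itself, for the 10 genes of smallest p. On the log2 scale the difference was 2.90 for LOC100847695, 3.27 for HIST1H1D, 1.67 for NUAK2, 3.94 for LOC100298064, 1.49 for EVA1A, 0.61 for PPP1R18, 1.06 for PIM3, 3.48 for FCRL3, -3.52 for OTOA and 1.24 for ZNHIT6. Leaving out healthy INR animal 10 reduced the genes that passed from 390 to 35, leaving out healthy COMBO animal 6 to 27, BRD COMBO animal 18 to 16 and BRD COMBO animal 54 to 15. Leaving out BRD COMBO animal 16 raised them to 1708 and healthy COMBO animal 3 to 637.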

How the results depend on the processing

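The 170 genes that passed in BRD cattle on day 0 depended on how the spread was estimated and on single animals. They became 418 by DESeq2, 437 when healthy cattle entered the fit, 65 at an FDR under 0.05, 76 with no filter on low counts and 97 by limma voom with a correlation within animals. From the 10 libraries alone 1 passed (edgeR, 1815 genes at an unadjusted p under 0.05), and from the 14 BRD libraries of day 0 passed 0 (edgeR, 1884 genes). The count was 69 against INR of pen 7, 23 against INR of pens 3 and 4, 28 with COMBO animals 18 and 54 both removed, and 14 to 1532 with 1 animal left out. In healthy cattle 5 genes became 2 from the 8 libraries alone, 95 by DESeq2 and 0 to 135 with 1 animal left out, 0 without INR animal 7 or 10 and 135 without COMBO animal 3. For the difference between BRD and healthy cattle 390 genes became 1 from the 26 libraries of day 0, 693 by DESeq2, 9 without animals 18 and 54, and 15 to 1708 with 1 animal left out. The cause of these shifts was not tested.

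With animals 18 and 54 both removed, chosen after seeing the data, COMBO is animal 16 alone and the spread is that of the other groups, so its counts are not a test of the treatments. Of the named genes past the threshold, the log2 fold change then reversed for LOC100847695 (-0.47), CXCL10 (-0.95), EVA1A (-0.066), CRTC1 (-0.074), TCOF1 (-0.21), HSP90AB1 (-0.054), RBM28 (-0.080), DDX10 (-0.019), DDX52 (-0.14), RPF2 (-0.034), ND2 (0.019), LAMP3 (-0.085) and LY6E (-0.60). Among those not past it, the value also turned for IRF7 (-1.38), IFIT2 (-1.30), GBP5 (-1.61) and MX1 (-1.04), among others. All 30 genes of smallest p passed by DESeq2, with other scaling factors, with a trended dispersion and with healthy cattle in the fit, and 26 passed by limma voom. Of the same 30, 0 passed from the 10 libraries alone and 0 from the 14 BRD libraries of day 0. Against INR of pen 7 only 25 passed, and against INR of pens 3 and 4 only 11. No paired analysis was possible because each animal had 1 treatment and 1 library on day 0.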
